A study of Homo sapiens with 6 samples.

Results

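Carbonic anhydrases are zinc enzymes that interconvert carbon dioxide and water with bicarbonate and a proton. The members described here were chosen by gene symbol and are CA2, CA5B, CA8, CA9, CA11, CA12 and CA13, 7 of the 60708 genes in the count table. They were followed in Caki-1, an established human clear cell renal carcinoma line with wild-type VHL, as vector control (VC) and VHL-KO cells with 3 samples each. VC cells carried a lenti-CRISPR vector without a guide and are labelled wild type. VHL-KO cells carried the same kind of vector with an sgRNA against VHL. Per the study's methods the cells were selected with puromycin and VHL-KO cells were grown as clonal lines screened by immunoblot. The study lists guides against human VHL, but which of them was used for these samples and the number of clones behind the 3 VHL-KO samples are not given in the sources used here, so effects of VHL loss and of a clone cannot be told apart. Nothing states that the samples of a group came from separate cultures, and the p-values therefore measure only the spread between these samples, which may be technical.

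Family members differ in where they work. CA9 and CA12 are anchored in the plasma membrane with the active site facing outward, CA2 and CA13 are cytosolic, CA5B is mitochondrial, and CA8 and CA11 lack a residue needed to hold the zinc and have no classical enzyme activity. In renal cells the cytosolic and membrane enzymes take part in acid and bicarbonate handling. VHL is the substrate-binding subunit of a ubiquitin ligase that marks hypoxia-inducible factor (HIF) α subunits for degradation, and CA9 is a textbook HIF target used as a marker of clear cell renal carcinoma.

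Reads counted on genes came to 31789923, 28463579 and 34881739 in VC replicates 1 to 3 and to 29139722, 22805385 and 22628246 for VHL-KO in the same order. Any gene without a count could still be present at the level of 3 counts, which was 0.0879, 0.101 and 0.0790 counts per 1000000 counts (CPM, scaled with TMM factors) in the VC samples and 0.112, 0.139 and 0.141 CPM in the VHL-KO samples. Such floors, like the interval given for CA9, cover counting error only. VHL itself (ENSG00000134086.8) had 42.6, 37.8 and 40.1 CPM across VC, against 34.8, 30.4 and 30.5 CPM across VHL-KO samples. Its mRNA was lower in each VHL-KO sample than in any VC sample, with a log2 fold change of -0.33 (SE 0.11, edgeR adjusted p = 0.0109). This call was lost without VC replicate 1 (log2 fold change -0.28, edgeR adjusted p = 0.0862) and without VHL-KO replicate 2 (-0.30, edgeR adjusted p = 0.0621). It was also lost with upper quartile factors (-0.22, edgeR adjusted p = 0.0905). Offsets that remove each library's trend with GC content and transcript length ended it too (-0.18, edgeR adjusted p = 0.0688). Over all alternatives the edgeR or DESeq2 adjusted p lay between 0.000293 and 0.0905. An RNA gene on the opposite strand covers 23.5% of the exonic bases of VHL, and without the strand its reads cannot be told apart there. A CRISPR edit need not lower the mRNA of its target, and the counts do not show whether the protein was lost. The study presents an immunoblot as evidence of the knockout in Caki-1 cells, without tying that blot to these samples.

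All 7 members had at least 10 reads in some sample and were tested. CA9 passed this filter only through the VHL-KO samples, so it had to be higher there and its call is not independent of the filter. Of the 7, 4 were higher and 3 were lower in VHL-KO than in VC cells at an adjusted p under 0.05, beside 28.5% of all 17401 tested genes called higher, 31.2% called lower and 59.7% called in either direction. At least 2-fold higher were 3 members, CA9, CA12 and CA11 (13.9% of all tested genes), and at least 2-fold lower was 1, CA8 (12.3%). Without VHL-KO replicate 2 the log2 fold change of CA8 was -0.85, which is less than 2-fold. The normalized levels of VC and VHL-KO samples did not overlap for any of the 7, which also held for 64.7% of all tested genes. Calls were thus frequent across the transcriptome, with 4958 genes higher and 5436 lower, or 47.7% of calls higher. With library size as the only scaling, 3764 genes were higher and 6737 lower, or 35.8% higher. Upper quartile factors turned the balance, with 5712 genes higher and 4668 lower, or 55.0% higher. The direction of each of the 7 members was the same under every scaling tried. In bulk RNA, fewer cells that express a gene and less of its RNA per cell cannot be told apart.

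**Figure D1:**
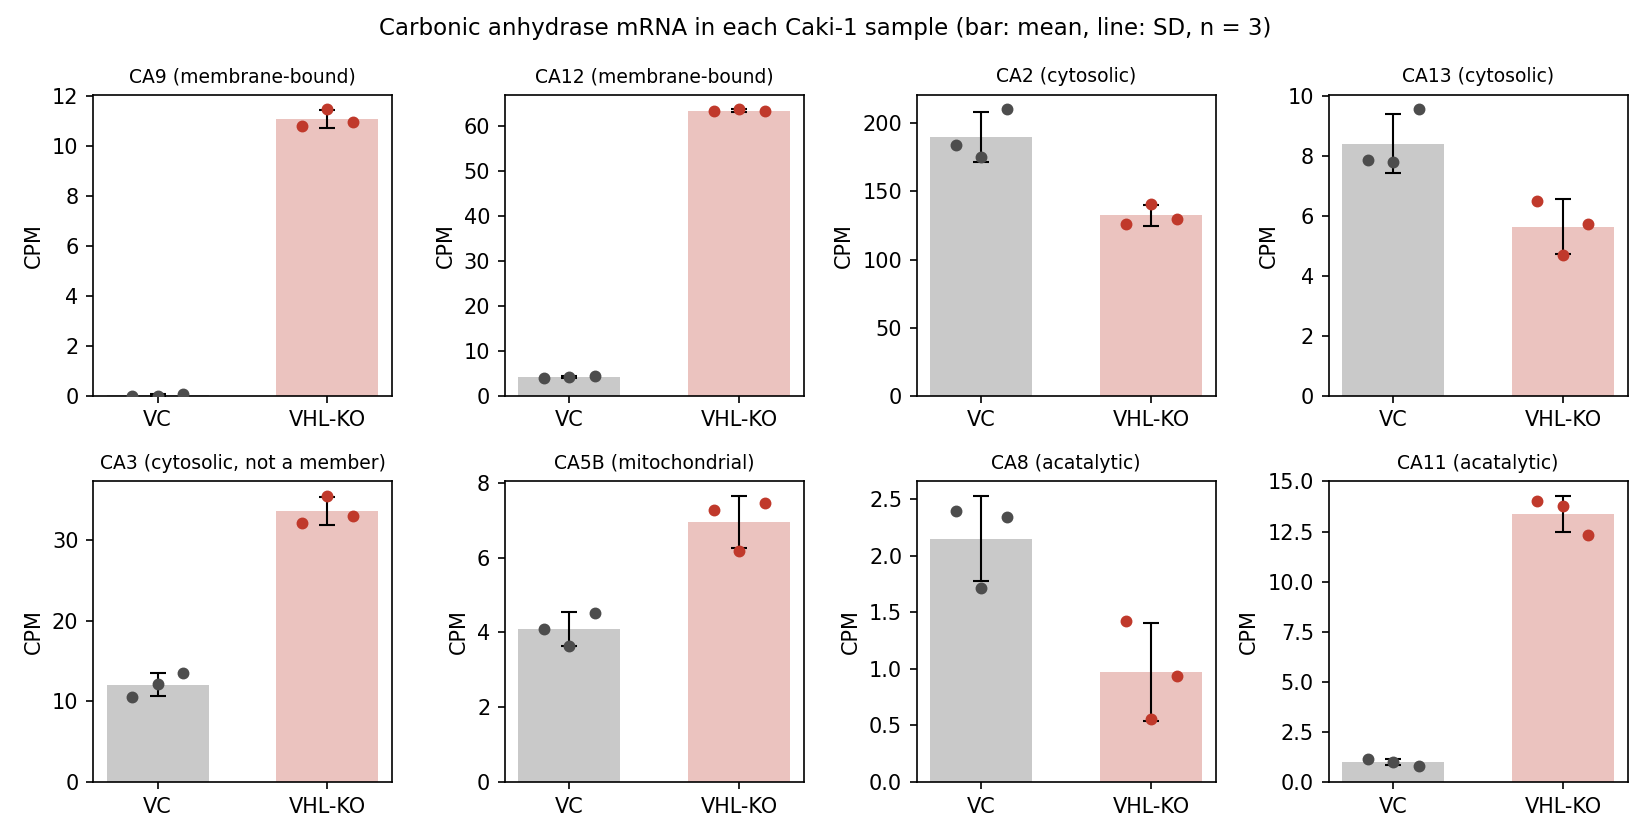
Level of each carbonic anhydrase in CPM (vertical axes, each from 0) in the 3 VC and 3 VHL-KO samples. Points are samples, bars are means and lines are SD. CA9 went from at most 0.0527 CPM in VC samples to between 10.8 and 11.4 CPM in VHL-KO samples, while CA2 fell from between 175 and 210 CPM to between 126 and 141 CPM.

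The membrane-bound enzymes showed the widest separation of the groups. CA9 (ENSG00000107159.13) had 0, 0 and 2 reads across VC replicates 1 to 3. Across VHL-KO replicates 1 to 3 it had 288, 247 and 233 reads, or 10.8, 11.4 and 10.9 CPM. It was thus at or under the floor in each VC sample and within a narrow range in the VHL-KO samples (11.1 ± 0.350 CPM, mean ± SD, n = 3). The ratio of the normalized counts, 768 against 2, was 562 with an exact 95% interval from 155 to 4646, so its size rests on the 2 counts of VC replicate 3. With offsets that remove each library's trend with GC content and transcript length, the lower limit moved from 7.28 to 6.64 on the log2 scale. Exons of CA9 share 35.7% of their bases with ARHGEF39 on the opposite strand, and whether counting used the strand is not stated. ARHGEF39 had 584, 493 and 591 reads across the VC samples, where CA9 had at most 2, against 199, 167 and 131 reads across VHL-KO. CA9 was thus higher in the samples where its overlapping neighbour was lower (log2 fold change -1.20, SE 0.15, edgeR adjusted p = 1.594e-07).

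CA12 (ENSG00000074410.14), the other outward-facing enzyme, shares no exonic bases with another annotated gene. It had 131, 125 and 164 reads across VC replicates, or 3.84, 4.21 and 4.32 CPM. Across the VHL-KO replicates it had 1690, 1374 and 1348 reads, or 63.3, 63.7 and 63.2 CPM. Every VHL-KO sample lay far above every VC sample, and the spread within a group was small. The means were 4.12 ± 0.253 and 63.4 ± 0.252 CPM (SD, n = 3 each), and the log2 fold change was 3.94 (SE 0.12, edgeR adjusted p = 4.515e-18), a 15.4-fold rise. Unlike CA9, CA12 was thus already measurable in VC cells.

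Promoters of the membrane-bound members CA9 and CA12 are shown. RefSeq promoter sequences on GRCh38.p14 ran from 250 bases before to 50 bases after the gene start. They were analysed for only 3 of the 7 members, CA9, CA12 and CA5B. Promoters of CA2, CA8, CA11 and CA13 were left out, and whether they hold matches was not tested. The members left out include CA2, CA8 and CA13, which were called lower. The RefSeq start of CA5B at 15738270 lies inside the gene as annotated by GENCODE, which begins at 15688830, and its window is not shown. Capitals mark ACGTG or GCGTG read on either strand (CACGT or CACGC on the printed strand), the core letters of HIF response elements. The CA9 promoter is chr9:35673678-35673977 on the plus strand and that of CA12 is chr15:63381797-63382096 on the minus strand, each printed 5′ to 3′ along its gene.
CA9: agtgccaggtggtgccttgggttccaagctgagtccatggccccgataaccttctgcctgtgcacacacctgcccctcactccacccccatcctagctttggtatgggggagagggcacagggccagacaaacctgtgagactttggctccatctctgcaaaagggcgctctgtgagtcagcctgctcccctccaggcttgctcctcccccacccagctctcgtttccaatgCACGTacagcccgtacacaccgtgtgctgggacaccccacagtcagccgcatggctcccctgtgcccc
CA12: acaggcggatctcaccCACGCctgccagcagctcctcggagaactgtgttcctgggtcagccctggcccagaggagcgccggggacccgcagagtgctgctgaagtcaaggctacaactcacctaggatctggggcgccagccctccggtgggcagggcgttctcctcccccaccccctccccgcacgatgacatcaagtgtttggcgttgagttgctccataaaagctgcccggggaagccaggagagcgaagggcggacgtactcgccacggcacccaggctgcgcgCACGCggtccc
CA9 held ACGTG 1 time, on the opposite strand from 18 bases before the start. CA12 held GCGTG 2 times, on the opposite strand, with matches that begin 234 bases before and 39 bases after the start. Of the 35116 promoters of this length, 21.4% held ACGTG, 36.5% held GCGTG and 48.5% held either. At least as many matches as in CA9 were found in 48.5% of promoters, and at least as many as in CA12 in 23.1%. The CA5B window held 7 matches, a number reached in 0.447% of promoters. Whether the number of matches goes with the change of a gene was not tested. A match describes letters in a window and shows no binding.

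**Figure D2:**
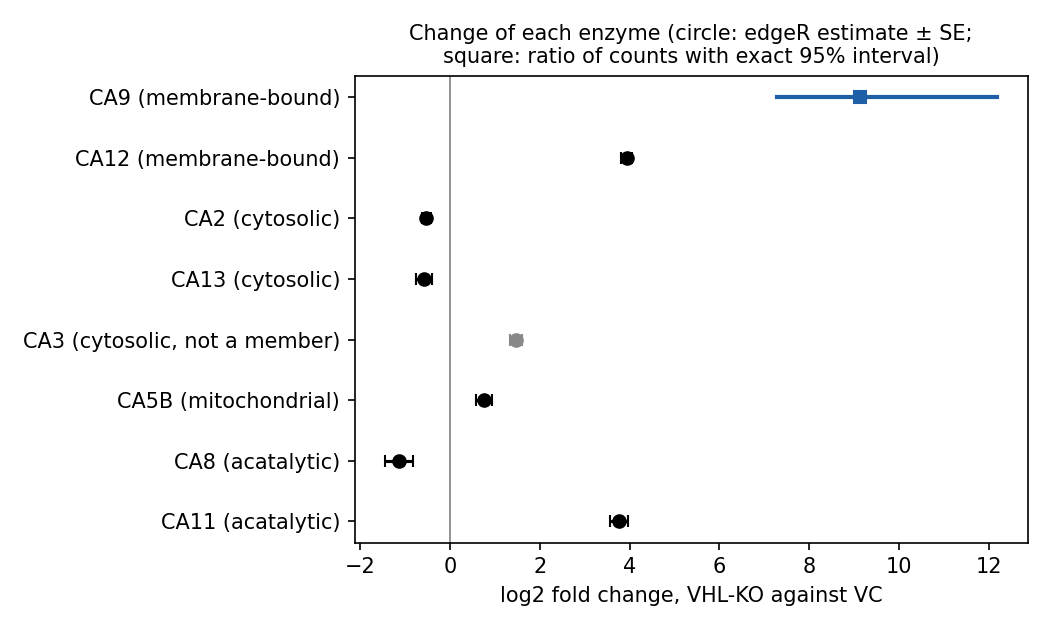
Log2 fold change of each carbonic anhydrase in VHL-KO against VC cells (horizontal axis). Circles are edgeR estimates with SE, and the square is the CA9 ratio of normalized counts with its exact 95% interval, from 7.28 to 12.18 on the log2 scale. CA9, CA12 and CA11 lie far to the right of 0, and CA2, CA13 and CA8 lie to its left, where CA13 and CA8 are not called with GC and length offsets.

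The cytosolic members went the other way by a smaller amount. CA2 (ENSG00000104267.10), the fast and widespread cytosolic enzyme of renal tubules, had 6291, 5207 and 7986 reads across the VC samples, against 3376, 3036 and 2772 reads across VHL-KO. These were 184, 175 and 210 CPM against 126, 141 and 130 CPM. Each VHL-KO sample was below each VC sample. The log2 fold change was -0.52 (SE 0.09, edgeR adjusted p = 3.612e-05), or 1.44-fold lower, and over all alternatives it lay between -0.72 and -0.38 and was called in each.

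CA13 (ENSG00000185015.8), a second cytosolic enzyme, had 7.88, 7.81 and 9.56 CPM across VC, against 6.51, 4.68 and 5.72 CPM across VHL-KO samples, from between 101 and 363 counts. An RNA gene on the opposite strand covers 4.64% of its exonic bases. The groups did not overlap, although the highest VHL-KO sample came close to the lowest VC sample. Its log2 fold change of -0.57 (SE 0.17, edgeR adjusted p = 0.006363) was near that of CA2. This call was not kept when each library's trend with GC content and transcript length was removed (log2 fold change -0.17, edgeR adjusted p = 0.335, with a range of 0.000870 to 0.335 over all alternatives). The 1506 tested genes within 1 percentage point of the GC content of CA13 (41.0%) had a median log2 fold change of -0.37, and for the 1566 such genes around CA2 (41.9%) it was -0.30.

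Counted against CA2 within each sample, CA13 had 0.0428, 0.0446 and 0.0454 reads per CA2 read across VC, against 0.0515, 0.0333 and 0.0440 across VHL-KO samples. The ranges of the groups overlapped. The mean log2 ratio was -4.50 ± 0.0447 in VC and -4.56 ± 0.318 in VHL-KO cells (SD, n = 3 each), and the difference of -0.06 had p = 0.8 in a two-sided exact permutation test, whose smallest p for 3 against 3 samples is 0.1, so it could not reach the threshold. Without VHL-KO replicate 2 the difference was 0.11, in the other direction. Among the membrane enzymes, the VHL-KO samples held 5.87, 5.56 and 5.79 CA12 reads per CA9 read. The ratio was at least 43.7 and 41.7 in VC replicates 1 and 2, against a floor of 3 CA9 counts, and 82 in VC replicate 3 (exact 95% interval from 22.3 to 682.8), where CA9 had 2 counts. No test of this ratio is given, since CA9 had to be higher in VHL-KO samples to pass the filter and the log2 ratio in VC cells follows the count added to each gene.

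CA3, a cytosolic enzyme of low activity best known from muscle, is outside the 7 members but lies with CA13, CA1 and CA2 in a gene cluster on chromosome 8. From start to end these genes occupy 85220587 to 85284073 (CA13), 85327608 to 85379014 (CA1), 85373436 to 85449040 (CA3) and 85463968 to 85481493 (CA2) on GRCh38. CA3 had 10.6, 12.1 and 13.5 CPM across VC, against 32.2, 35.5 and 33.1 CPM across VHL-KO samples. It was higher in every VHL-KO sample, with a log2 fold change of 1.47 (SE 0.13, edgeR adjusted p = 3.785e-10), between cluster neighbours of which CA2 and CA13 were lower and CA1 had no count in any sample. Its antisense gene CA3-AS1, which covers 11.1% of the exonic bases of CA3, had 91, 80 and 93 reads across VC, against 135, 110 and 84 reads across VHL-KO samples (log2 fold change 0.85, SE 0.20, edgeR adjusted p = 0.0008073). Reads in the shared bases cannot be told apart without the strand, and both values are uncertain to that extent.

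CA5B (ENSG00000169239.13), a mitochondrial enzyme that supplies bicarbonate to biosynthetic carboxylation, had 4.10, 3.63 and 4.53 CPM across VC, against 7.26, 6.16 and 7.46 CPM across VHL-KO samples. All VHL-KO samples exceeded all VC samples. The log2 fold change was 0.76 (SE 0.18, edgeR adjusted p = 0.0007445), a 1.70-fold rise, from between 108 and 194 counts. Its value is uncertain because the similar pseudogene CA5BP1 lies beside it and shares 0.34% of its exonic bases, and only reads mapped to a single location were counted. INE2, which covers 21.99% of its exonic bases on the opposite strand, had no count in any sample. CA5BP1 had 16.3, 15.7 and 15.2 CPM across VC, against 14.3, 15.99 and 14.3 CPM across VHL-KO samples. Its level is uncertain too, since in GENCODE a lncRNA of the same name and strand, without a row in the count table, covers 80.1% of its exonic bases and a pseudogene on the opposite strand covers 38.6%. The groups overlapped, and its log2 fold change of -0.08 (SE 0.13) was not called (edgeR adjusted p = 0.5953). With GC and length offsets CA5BP1 was lower (log2 fold change -0.60, edgeR adjusted p = 5.156e-05, with a range of 3.623e-05 to 0.870 over all alternatives).

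The acatalytic members moved in opposite directions. CA11 (ENSG00000063180.9), on chromosome 19 from 48637946 to 48646187, had 39, 30 and 31 reads across the VC samples, against 375, 297 and 263 reads across VHL-KO. These were 1.14, 1.01 and 0.817 CPM against 14.0, 13.8 and 12.3 CPM. The lowest VHL-KO sample was far above the highest VC sample. Its log2 fold change was 3.76 (SE 0.20, edgeR adjusted p = 6.861e-14), or 13.5-fold, a rise close in size to that of CA12. With GC and length offsets the 2 rises were less alike, at 3.215 for CA11 and 3.983 for CA12 on the log2 scale. SEC1P, which covers 3.80% of the exonic bases of CA11 on the opposite strand, had at most 2 counts in a sample.

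CA8 (ENSG00000178538.10), which binds an inositol trisphosphate receptor in neurons, had 82, 51 and 89 reads across VC, against 38, 12 and 20 reads across VHL-KO samples. These were 2.40, 1.72 and 2.34 CPM against 1.42, 0.556 and 0.938 CPM. The groups did not overlap, but the VHL-KO samples spread widely around their mean of 0.972 ± 0.434 CPM (SD, n = 3). Its log2 fold change was -1.12 (SE 0.31, edgeR adjusted p = 0.00342). The call was lost with GC and length offsets (log2 fold change -0.62, edgeR adjusted p = 0.0888, with a range of 0.000506 to 0.0888 over all alternatives), and the 934 tested genes within 1 percentage point of its GC content (37.0%) had a median of -0.53. For the GC content of CA9 (59.9%), CA11 (59.1%), CA12 (49.5%) and CA5B (42.8%) the same medians were 0.44, 0.35, 0.02 and -0.23.

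Levels per kb of exon length allow the members to be ranked. In VC cells CA2 was highest at 94.6 ± 9.09 CPM per kb, followed by CA13 at 1.504 ± 0.177. Then came CA12 (0.589 ± 0.0361), CA11 (0.508 ± 0.0841) and CA5B (0.480 ± 0.0526), in CPM per kb, where samples of neighbours in this order overlapped. CA8 (0.280 ± 0.0493 CPM per kb) and CA9 (0.0110 ± 0.0190 CPM per kb) were lowest (SD, n = 3 throughout). In VHL-KO cells CA2 stayed first at 66.0 ± 3.71 CPM per kb, and CA12 was second at 9.06 ± 0.0359. CA9 (6.92 ± 0.219 CPM per kb) and CA11 (6.88 ± 0.470 CPM per kb) overlapped in their samples, as did CA13 (1.01 ± 0.164 CPM per kb) and CA5B (0.817 ± 0.0818 CPM per kb). CA8 was last at 0.126 ± 0.0563 CPM per kb. CA9 therefore went from the last of 7 places to the third, while CA13 went from the second to the fifth. Outside the 7, CA3 had 5.30 ± 0.639 CPM per kb in VC and 14.7 ± 0.763 in VHL-KO cells (SD, n = 3 each), above every member but CA2 in both groups.

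Summed per kb, the membrane-bound enzymes had 0.548, 0.601 and 0.650 CPM per kb across VC, against 15.8, 16.3 and 15.9 across VHL-KO samples. The cytosolic pair had 93.2, 88.7 and 106.5 CPM per kb across VC, against 64.1, 70.9 and 65.8 across VHL-KO samples. Neither sum overlapped between the groups. With CA3 added, a sum chosen after its values were seen, the cytosolic level was 97.9, 94.0 and 112.4 CPM per kb across VC, against 78.3, 86.5 and 80.3 across VHL-KO samples, so the fall on the log2 scale was 0.31 in place of 0.52. The membrane-bound share of the 7 members' summed level was 0.613% ± 0.0456 in VC and 17.6% ± 0.442 in VHL-KO cells, and that of the cytosolic pair was 98.1% ± 0.139 and 73.8% ± 0.951 (SD, n = 3 each). CA2 alone took 96.5%, 96.5% and 96.7% across VC, against 71.4%, 73.7% and 72.8% across VHL-KO samples. The total of all 7 was 95.1, 90.5 and 108.4 CPM per kb across VC, against 88.2, 95.1 and 89.0 across VHL-KO samples, and here the groups overlapped. CA2 thus remained the main carbonic anhydrase mRNA of the 7 in both groups.

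**Figure D3:**
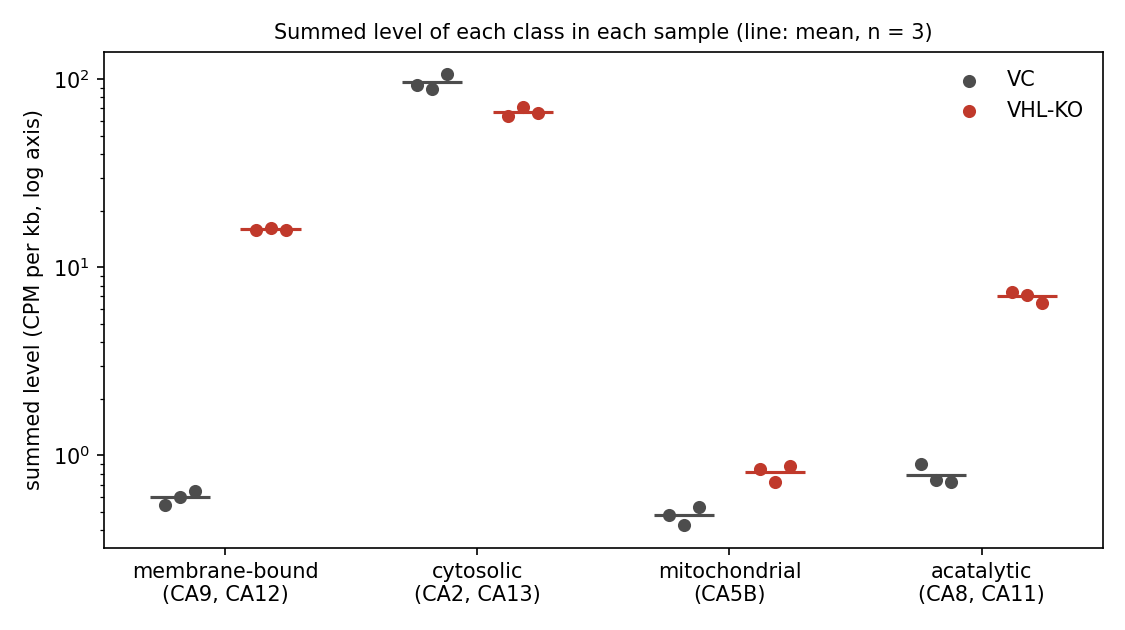
Summed level of each class of members in CPM per kb of exon length (vertical log axis) in the 3 VC and 3 VHL-KO samples. Points are samples and lines are means. The membrane-bound pair rises from a mean of 0.5999 to 15.97 CPM per kb and the acatalytic pair from 0.788 to 7.00, while the cytosolic pair falls from 96.1 to 67.0.

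Of the 8 other carbonic anhydrases in the table, CA3 was the only one tested. CA1, CA4, CA5A, CA6 and CA10 had no count in any sample, CA7 had 1 count in VHL-KO replicate 1, and CA14, a further membrane-bound enzyme, had 1 count in VC replicate 1 and 1 in VHL-KO replicate 2. These genes were not detectable above the floor of 3 counts. The pseudogenes CA15P1 and CA15P2 also had none, and CA5AP1 had 1 count, in VC replicate 2.

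Genes whose 6 log2 CPM values, centred on their mean, were most like those of a member were sought among 13165 tested genes with a mean of at least 1 CPM. For CA9 these were NRN1, KNDC1 and NDRG1, a stress and hypoxia response gene. CA9 and NRN1 had at most 2 reads in a VC sample, where their log2 CPM follows the 2 counts added before taking logs. No distances are therefore given for CA9, and the order of these genes depends on that setting. NRN1 had no count in any VC sample, against 227, 188 and 153 reads across VHL-KO, which is at least 91.0-fold higher against a floor of 3 counts per library. For CA12 they were ISM2, SPAG4 and SHC2, at a root mean square difference of 0.118, 0.126 and 0.164 on the log2 scale. ISM2 had 6, 6 and 8 reads across VC, against 91, 79 and 68 reads across VHL-KO samples. It passed the filter only through the VHL-KO samples, and its distance depends in part on the 2 counts added. SPAG4 had 132, 130 and 147 reads across VC, against 1462, 1255 and 1083 reads across VHL-KO samples. For CA11 they were PDZK1IP1, WFDC3 and PRR5L, at 0.0908, 0.101 and 0.107. PDZK1IP1, a small membrane protein of renal tubules, had a mean of 87.0 CPM in VC and 1122 CPM in VHL-KO cells, and its log2 fold change of 3.69 was 3.08 with GC and length offsets. For CA8 they were ZNF714, ANO5 and LINC00630, at 0.120, 0.127 and 0.174, all lower in VHL-KO cells, although ANO5 lost its call with GC and length offsets (-0.55). With values in only 2 groups of 3, likeness mainly reflects the size of the group difference.

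HIF target genes outside the family were higher in VHL-KO cells in 11 of 12 cases at an adjusted p under 0.05, beside 28.5% of all tested genes, and the median log2 fold change was 1.60 beside -0.01 over all tested genes. NDRG1 rose from 11.7 ± 0.482 to 761 ± 28.5 CPM (SD, n = 3 each). Its log2 fold change was 6.03 (SE 0.11, edgeR adjusted p = 7.282e-23). ADM, which encodes the vasodilator adrenomedullin, rose by a log2 fold change of 3.55 (SE 0.13, edgeR adjusted p = 4.992e-17), and ANGPTL4, an inhibitor of lipoprotein lipase, by 3.40 (SE 0.11, edgeR adjusted p = 4.515e-18). The log2 fold changes of CA12 (3.94) and CA11 (3.76) lay between those of NDRG1 and ADM. The exception was EGLN3, a HIF prolyl hydroxylase, named after its values were seen, at -1.26 (SE 0.35, edgeR adjusted p = 0.003366).

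Proteins that move bicarbonate, protons and lactate work beside carbonic anhydrases. The counts of called genes in these lists stand beside 28.5% of all tested genes called higher and 31.2% called lower. Of 14 bicarbonate transporters 8 were tested, of which 3 were higher, 1 was lower and 4 were not called, with a median log2 fold change of -0.05. SLC4A4, the electrogenic sodium bicarbonate cotransporter of the proximal tubule, fell from 10.9 ± 2.45 to 4.36 ± 0.804 CPM (SD, n = 3 each). Its log2 fold change was -1.32 (SE 0.19, edgeR adjusted p = 1.546e-06). Both anion exchangers SLC4A3 (log2 fold change 0.92, SE 0.15, edgeR adjusted p = 8.139e-06) and SLC4A2 (0.31, SE 0.09, edgeR adjusted p = 0.006481) were higher. SLC4A2 was not called with library size alone (0.12) and changed direction with GC and length offsets (-0.08, edgeR adjusted p = 0.192, with a range of 3.345e-06 to 0.236 over all alternatives). SLC26A6, named after its values were seen, was the remaining gene called higher, at 0.29 (edgeR adjusted p = 0.04618). It was not called higher in 9 of 15 alternatives, among them the fits without VC replicate 1 (0.29), VC replicate 3 (0.28), VHL-KO replicate 1 (0.32) and VHL-KO replicate 3 (0.20), and was at -0.02 with GC and length offsets.

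Among 9 sodium-proton exchangers 6 were tested, of which 2 were higher, 1 was lower and 3 were not called, with a median of 0.10. The log2 fold change was 0.61 for SLC9A9 (SE 0.26, edgeR adjusted p = 0.04149) and 0.34 for SLC9A8 (SE 0.13, edgeR adjusted p = 0.02573). These calls were lost in 7 and 6 of 15 alternatives. For SLC9A9 they included the fits without VC replicate 1 (0.49), VC replicate 2 (0.63), VHL-KO replicate 2 (0.62) and VHL-KO replicate 3 (0.55). For SLC9A8 they included the fits without VC replicate 1 (0.31) and VHL-KO replicate 3 (0.23).

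Proton-coupled monocarboxylate transporters and their chaperones showed changes in both directions, with 2 higher, 2 lower and 1 not called among 5 tested of 6 genes and a median of -0.39. SLC16A1 (MCT1) fell from 72.5 ± 12.3 to 25.9 ± 3.68 CPM, and SLC16A3 (MCT4), the transporter of glycolytic cells, rose from 873 ± 86.9 to 1942 ± 43.3 CPM (SD, n = 3 each). The log2 fold changes were -1.49 (SE 0.13, edgeR adjusted p = 3.312e-10) and 1.15 (SE 0.09, edgeR adjusted p = 5.312e-11). Their chaperones moved apart as well. EMB (embigin) was at -1.27 (SE 0.18, edgeR adjusted p = 1.923e-06), and BSG (basigin), named after its values were seen, was at 0.94 (SE 0.09, edgeR adjusted p = 2.693e-09).

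The V-type proton ATPase, which acidifies intracellular compartments and, in some renal cells, the lumen, had 21 of 24 subunit genes tested. Of these 8 were higher, 6 were lower and 7 were not called, with a median of -0.00319. With GC and length offsets 2 were lower. ATP6V1F rose from 162 ± 6.63 to 400.1 ± 31.4 CPM (SD, n = 3 each; log2 fold change 1.31, SE 0.09, edgeR adjusted p = 8.959e-12). With GC and length offsets its log2 fold change was 0.71. ATP6V0D2, at 1.31 (SE 0.32, edgeR adjusted p = 0.001174), had at most 55 counts in a sample, and ATP6V0E2 was at 1.22 (SE 0.10, edgeR adjusted p = 8.715e-11).

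**Figure D4:**
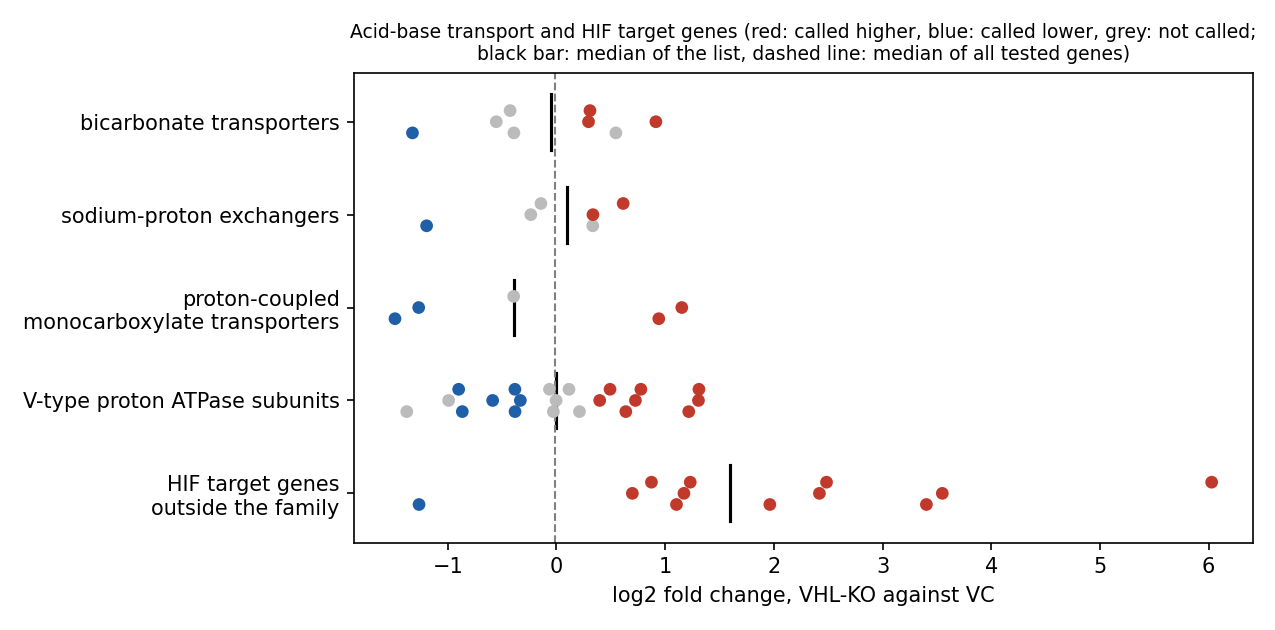
Log2 fold change in VHL-KO against VC cells (horizontal axis) of the tested genes in each acid-base transport list and of HIF target genes outside the family. Points are genes, red where called higher, blue where called lower and grey where not called; black bars are list medians and the dashed line is the median of all tested genes (-0.01). The HIF target list has a median of 1.60, and the other lists have medians between -0.39 and 0.10.

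Of 10 kidney and epithelial markers 9 were tested, of which 5 were higher, 2 were lower and 2 were not called, beside 28.5% of all tested genes called higher and 31.2% called lower, with a list median of 0.37. Named after their values were seen, PAX8, CDH16, KRT8, KRT18 and KRT19 were higher and LHX1 and EPCAM were lower. KRT19 lost its call in 11 of 15 alternatives, among them each replicate left out except VHL-KO replicate 2 (0.83 to 1.10), and KRT18 lost its call with library size alone (0.18) and with GC and length offsets (0.11). Their summed level was 1714, 1927 and 1562 CPM across VC, against 2390, 2313 and 2325 CPM across VHL-KO samples, led by KRT8, and PAX2 was at 0 in every sample. Erythroid cells are rich in CA1 and CA2, and of 6 erythroid markers 5 were at 0 in every sample while ALAS2 had 2 counts in VC replicate 1. Leukocyte markers summed to between 0.263 and 0.749 CPM in a sample, led by ITGAM, the only one tested (edgeR adjusted p = 0.4497), with CD3E at 0. Endothelial markers summed to between 0.168 and 0.711 CPM, with TEK and CLDN5 at 0. By mean level PECAM1 led in VHL-KO cells and KDR in VC cells. KDR had 4, 0 and 9 reads across VC and none in VHL-KO samples. PECAM1 passed the filter only through VHL-KO replicate 1 and had 1, 5 and 0 reads across VC, against 14, 7 and 9 across VHL-KO. Defining markers of these 3 other cell types were thus at or near 0 in both groups.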

How the data were processed

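Total RNA of 3 VC and 3 VHL-KO Caki-1 samples was sequenced. Per the study's methods and the submitters' processing notes, reads were trimmed with Trim Galore and cutadapt, aligned with STAR to GRCh38.p13 and kept where they mapped to 1 location. HTSeq then gave the raw count per gene that the authors deposited. Strandedness and annotation release are not given in the sources used here.

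Samples were grouped by their labels. Genes that reached 10 reads in 1 sample or more were compared with edgeR 4.0.16 (TMM, quasi-likelihood F test, two-sided, Benjamini-Hochberg over 17401 genes) in R 4.3.3. The SE is the absolute log2 fold change divided by the square root of F. For CA9 a ratio of summed counts, scaled by effective library size, with an exact binomial interval is given. DESeq2 1.42.0, other scalings and filters, left-out replicates, a replicate block and offsets for GC content and length were alternatives. The fit was tested on simulated data in which few genes changed, as many up as down. Far more genes were called here, so this does not check the scaling between these samples. Lengths and positions came from GENCODE release 44, which matched 60507 of 60708 genes.

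Named genes were the members, VHL, other family genes, the 3 called genes with the largest change in each transporter and HIF target list, and the 3 genes most like each member changed at least 2-fold. A gene that this rule names is not reported here. Members and lists were chosen with earlier results of these data known. Pairs of replicates had a chi-square of 6.18 to 32.8 per degree of freedom, so none was a copy of another.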

Additional observations from a re-analysis of the deposited data

How the results depend on the processing

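The directions of the 7 members were kept in all 104 alternative values, and 100 of them stayed on the same side of the threshold. CA13 and CA8 were no longer called with GC and length offsets (log2 fold change -0.17 and -0.62) or with these offsets and a replicate block (-0.17 and -0.67). Members called lower then numbered 1 in place of 3. CA9 had too few VC reads for the filter of at least 10 reads in every sample and has no value there. VHL lost its call with upper quartile factors (-0.22) and with the offsets (-0.18), as well as in the fits named above. The cause of these losses was not tested.

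Against TMM, library size alone moved the median of all genes by -0.19 and upper quartile factors by 0.11, and member changes should be read relative to these shifts. The count of genes called lay between 9215 and 10501 over the alternatives, beside 10394. Whether replicate numbers pair the samples cannot be decided from correlations this small. Deviations of same-numbered samples correlated at 0.0627, -0.000448 and 0.0283. VC replicates 1 and 3 correlated best with the same-numbered VHL-KO sample, and VC replicate 2 with VHL-KO replicate 3 (0.0170). A replicate block gave 10284 calls and alone ended no call of a member.

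Bicarbonate transporters called higher numbered 1 with library size alone and with the offsets, without or with the block, beside 3. Those called lower numbered 2 with library size alone and with no filter, beside 1, and 1 to 2 with a replicate left out. Sodium-proton exchangers called higher, 2 in the report, numbered 0 with library size alone and with no filter, 1 with DESeq2 and with the offsets, without or with the block, 3 with upper quartile factors and 0 to 2 with a replicate left out. Those called lower, 1 in the report, numbered 3 with library size alone, 2 with no filter and with the offsets, without or with the block, and 1 to 2 with a replicate left out. V-type ATPase subunits called lower numbered 2 with the offsets, without or with the block. SLC4A2 was at -0.0778 with the offsets and at -0.0784 with the offsets and block. The log2 ratio of CA12 to CA9, left out of the report, differed by -2.19 with 5 added in place of -4.83, and that of CA13 to CA2 by 0.11 without VHL-KO replicate 2 (range without a replicate -0.21 to 0.11). SLC26A6 was at -0.0211 with the offsets and at -0.0233 with the offsets and block. Over 43 other named genes for which the alternatives were run, 592 of 638 values stayed on the same side, 40 were no longer past the threshold, 2 newly were and 4 reversed. The cause of these changes was not tested. Depth limits what can be said of CA9 in VC cells and of the undetected family members.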
